A study of Mus musculus with 6 samples.

Results

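Glycolysis and the hypoxia response were followed through 33 genes chosen by symbol, namely 4 glucose and lactate carriers, 18 glycolytic enzymes, 3 regulators of flux, 4 hypoxia factors and their sensors and 4 hypoxia target genes. All 33 were found among the 24207 loci of the authors' RNA-seq table, each at 1 entry. RNA had been taken from whole male embryos at E9.5, 3 of the genotype Smchd1+/+ (wildtype) and 3 homozygous for the ENU-induced MommeD1 allele, Smchd1MommeD1/MommeD1 (mutant). *Smchd1* encodes a chromatin protein needed for X inactivation, and the comparison asked which genes depend on it in male embryos. The labels give C57Bl6/J x FVB/n as the strain background, whereas the paper's text names a backcross to another strain for the embryos it sequenced at this stage. The table holds 1 FPKM value for each genotype, pooled over its embryos. No spread between embryos could therefore be given, no test was made, and the depth of the libraries is unknown. As a check of the labels, *Smchd1* itself was at 2.12 FPKM in mutants against 34.0 FPKM in wildtype embryos.

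Cells import glucose through carriers of the Slc2a family, break it down to pyruvate in the cytosol by a chain of enzymes and, where pyruvate is not passed on to mitochondria, reduce it to lactate, which leaves through monocarboxylate carriers. Low oxygen strengthens this route. Prolyl hydroxylases mark the alpha subunits of the hypoxia inducible factor (HIF) for destruction when oxygen is present, and in its absence the factor binds short DNA elements and activates genes of glucose uptake, glycolysis and vessel growth. The midgestation mouse embryo develops in low oxygen and relies strongly on glycolysis.

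The core of the DNA element bound by HIF is ACGTG or GCGTG, read on either strand. Promoter windows of RefSeq (GRCm38.p6, the build also known as mm10) covering 250 bases before and 50 after a start site were listed for 31 of the 33 genes, and not for *Slc2a3* and *Epas1*. At least 1 of these motifs was present for 27 of the 31 genes (87.1%), against 46.7% of all 27025 genes with a window and 69.2% of the 8408 of them that matched a table entry with a mean level of 1 FPKM or more. For ACGTG alone the counts were 20 of 31 genes (64.5%), against 21.8% and 30.0%. The genes were chosen for glycolysis and the hypoxia response, and several are HIF targets, so a high share may follow from the choice itself. A gene with several windows was counted if any of them held a motif, and a match in letters does not show binding. The 250 bases before the start site are shown for the carrier *Slc2a1*, for *Pgk1* and for the lactate dehydrogenase genes *Ldha* and *Ldhb*, which went in opposite directions in the mutants. Bases are written 5′ to 3′ along the gene, and capitals mark every match to either motif on either strand.

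Slc2a1, chr4:119108495-119108744, plus strand: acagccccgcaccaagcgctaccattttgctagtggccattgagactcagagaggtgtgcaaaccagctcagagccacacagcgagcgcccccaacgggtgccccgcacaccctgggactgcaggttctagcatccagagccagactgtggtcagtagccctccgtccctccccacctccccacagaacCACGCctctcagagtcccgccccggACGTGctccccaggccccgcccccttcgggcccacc
Pgk1, chrX:106186850-106187099, plus strand: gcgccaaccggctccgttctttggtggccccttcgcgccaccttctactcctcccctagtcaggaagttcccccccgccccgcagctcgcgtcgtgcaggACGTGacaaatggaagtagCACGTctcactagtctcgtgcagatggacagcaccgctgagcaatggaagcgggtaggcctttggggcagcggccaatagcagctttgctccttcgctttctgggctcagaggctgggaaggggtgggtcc
Ldha, chr7:46845554-46845803, plus strand: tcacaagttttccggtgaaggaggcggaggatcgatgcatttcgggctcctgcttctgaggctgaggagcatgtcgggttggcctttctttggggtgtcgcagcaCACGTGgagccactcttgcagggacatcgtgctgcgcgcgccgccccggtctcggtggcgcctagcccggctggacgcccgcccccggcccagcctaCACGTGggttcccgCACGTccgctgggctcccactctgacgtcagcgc
Ldhb, chr6:142507958-142508207, minus strand: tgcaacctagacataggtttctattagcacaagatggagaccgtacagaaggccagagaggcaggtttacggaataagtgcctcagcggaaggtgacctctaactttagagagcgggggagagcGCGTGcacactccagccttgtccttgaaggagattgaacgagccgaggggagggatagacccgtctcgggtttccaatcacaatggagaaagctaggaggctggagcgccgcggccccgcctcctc

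The window of *Ldha* held 7 matches in all, counting both strands of the palindrome CACGTG and 2 matches after the start site that lie outside the bases shown. That of *Ldhb* held 1, a GCGTG, and no ACGTG. *Slc2a1* and *Pgk1* held 2 each. Where *Ldha* and *Pgk1* begin their transcripts in these embryos was not measured, and the *Ldha* locus of the table starts 4172 bases upstream of the start site used here.

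Most of the 33 genes had a lower FPKM in mutant embryos, by modest amounts. Differences are given as the log2 ratio of mutant over wildtype FPKM after adding 0.1 FPKM to each, so that a negative value means a lower level in mutants. Of the 32 genes with a mean level of 1 FPKM or more, 24 were lower and 8 higher in mutants, with a median log2 ratio of -0.17, while the 12463 loci of the table at that level had a median of -0.0076 and 51.8% of them were lower. At 100 FPKM and above, 11 of 12 genes were lower (median -0.22), beside 59.1% of 933 loci (median -0.031). These 11 include *Gpi1*, with a log2 ratio of only -0.0082. The log2 ratio lay under -0.12, the lower quartile of all loci, for 20 of the 32 genes, and over 0.11, the upper quartile, for 4. Past a 1.5-fold difference, 1 gene of the 32 was higher (3.13%) and 2 were lower (6.25%), against 3.51% and 1.47% of all loci. With counts this small these shares do not set the genes apart from the background. The 33 genes were also chosen with earlier results of these data known.

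**Figure D1:**
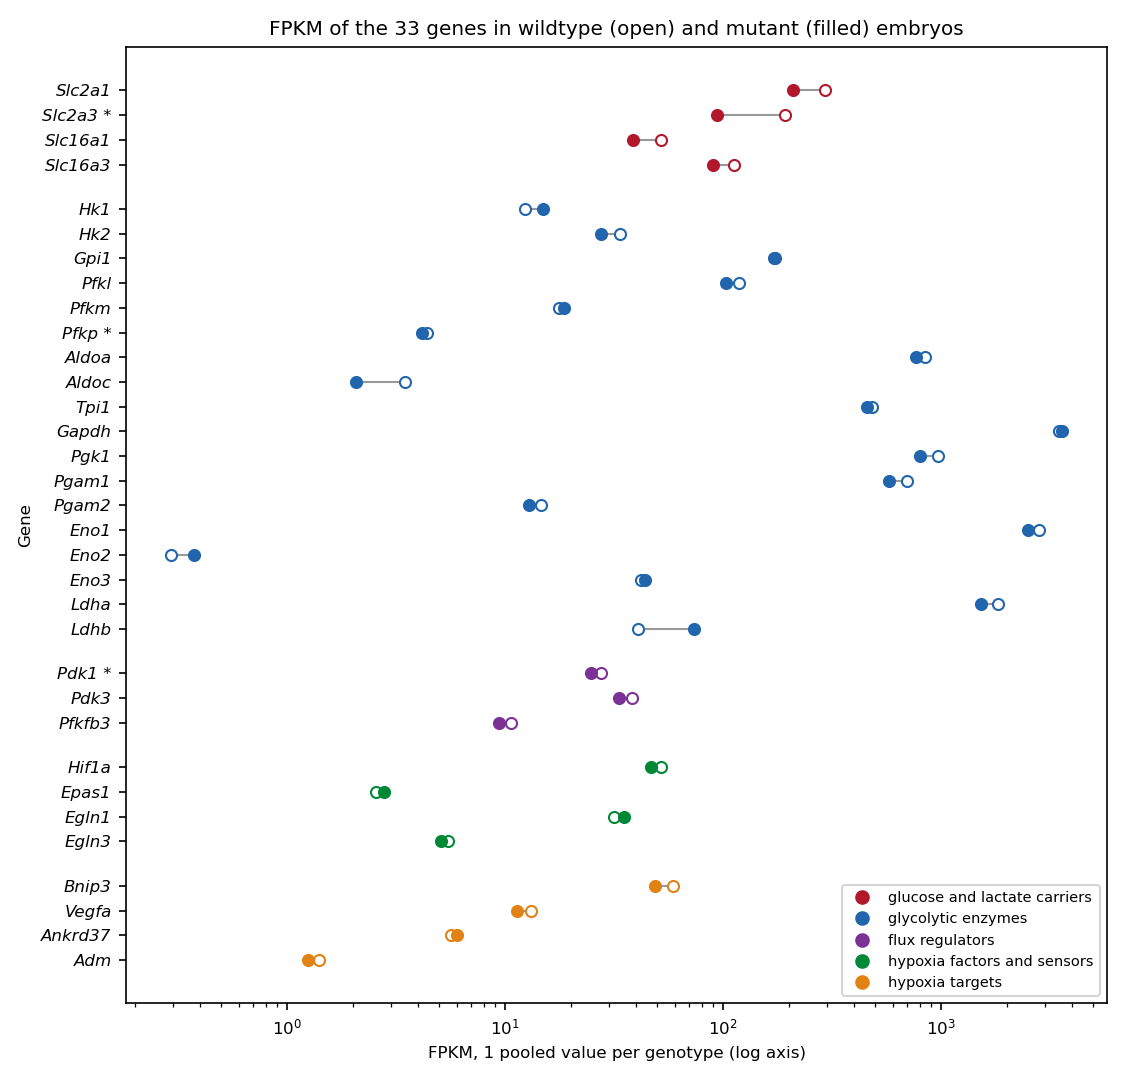
FPKM of the 33 genes on a log axis, grouped and coloured by role, with an open circle for the pooled wildtype value and a filled circle for the pooled mutant value, and an asterisk for loci that the authors' program marked as failed. The filled circle lies to the left of the open one for all 4 carriers, while for *Ldhb* it lies to the right, at 73.9 against 40.9 FPKM.

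Among the roles of the 33 genes the carriers showed the clearest difference, and all 4 were lower in mutants. Of the glucose carriers listed outside the 33 genes, *Slc2a4* was higher in mutants (log2 ratio 0.17) and *Slc2a8* lower (-0.17). The others listed had a mean level below 1 FPKM. *Slc2a1*, on chromosome 4 of mm10 from 119108745 to 119137329, encodes GLUT1, the main glucose carrier of many embryonic cells. It was at 209 FPKM in mutants against 294 FPKM in wildtype embryos, a log2 ratio of -0.49, and 2.09% of all loci with a mean level of 1 FPKM or more lay as low or lower. *Slc2a3*, on chromosome 6 from 122727809 to 122801897, encodes GLUT3, a carrier of high affinity known from placenta and neurons. Its values were 93.9 FPKM in mutants against 193 FPKM in wildtype embryos, a log2 ratio of -1.04, the lowest of the 33 genes. That locus is 1 of 134 which the authors' program marked as failed, so its values are less certain than the others. As described further on, neuron markers were higher in mutants, most visceral endoderm markers were lower and trophoblast markers were below 1 FPKM. The part of any cell type in the level of *Slc2a3* was not tested.

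The monocarboxylate carriers were lower by less. *Slc16a1*, which encodes MCT1, a carrier of lactate in both directions, was at 38.7 FPKM in mutants against 51.8 FPKM in wildtype embryos (log2 ratio -0.42). *Slc16a3*, the gene of the lactate exporter MCT4 and a HIF target, was at 89.8 and 112 FPKM (log2 ratio -0.32). Of all loci, 3.02% were as low as *Slc16a1* and 4.96% as low as *Slc16a3*. None of these 3 carriers, leaving *Slc2a3* aside, passed the 1.5-fold difference. Summed over the 4 genes, FPKM came to 431 in mutant and 651 in wildtype embryos, a log2 ratio of the sums of -0.59, to which the failed locus of *Slc2a3* contributed most.

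Among the enzymes, 12 of the 17 with a mean level of 1 FPKM or more were lower and 5 higher, with a median log2 ratio of -0.12. In the first reactions, which spend ATP, the pattern was mixed. Hexokinase traps glucose in the cell as a phosphate ester. *Hk2*, the inducible form, was at 27.5 FPKM in mutants against 33.8 FPKM in wildtype embryos (log2 ratio -0.29). *Hk1*, the form expressed in most tissues, was higher in mutants, at 15.0 and 12.3 FPKM (log2 ratio 0.28). The locus of *Hk1* is shared with *2210417K05Rik*.

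*Gpi1*, which turns glucose 6-phosphate into fructose 6-phosphate, was level between the genotypes at 171 and 172 FPKM. Phosphofructokinase catalyses the committed step. Its liver form *Pfkl*, the most abundant here, was at 104 and 118 FPKM (log2 ratio -0.19), its muscle form *Pfkm* at 18.7 and 17.7 FPKM (0.077) and its platelet form *Pfkp* at 4.14 and 4.39 FPKM (-0.082). The locus of *Pfkp*, shared with *Pitrm1*, was also marked as failed, and *Pfkm* shares its locus with *Senp1*.

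Aldolase splits the sugar into triose phosphates, which triose phosphate isomerase interconverts. *Aldoa*, the main form in muscle and most embryonic cells, was at 770 FPKM in mutants against 839 FPKM in wildtype embryos (log2 ratio -0.12). *Aldoc*, the brain form, on chromosome 11 from 78323047 to 78326760, was scarce, at 2.07 and 3.47 FPKM. Its log2 ratio of -0.72 was past the 1.5-fold difference. *Tpi1*, at 460 and 481 FPKM, differed little (-0.066) and shares its locus with *Spsb2*.

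The later reactions yield ATP, and *Gapdh*, *Eno1* and *Ldha* were the most abundant of the 33 genes. *Gapdh*, often used as a reference gene, was at 3602 FPKM in mutants against 3462 FPKM in wildtype embryos (log2 ratio 0.057). It was the 1 gene above 100 FPKM with a log2 ratio above 0. *Pgk1*, an X-linked HIF target that makes the first ATP, was at 804 and 972 FPKM (-0.27). *Pgam1* was at 579 and 696 FPKM (-0.27), and its muscle counterpart *Pgam2* at 12.8 and 14.7 FPKM (-0.19). These mutases move the phosphate group ahead of the enolase reaction.

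*Eno1*, the main enolase, was at 2506 FPKM in mutants against 2814 FPKM in wildtype embryos (log2 ratio -0.17). The muscle enolase *Eno3* was at 43.9 and 41.9 FPKM (0.069). The neuron enolase *Eno2*, at 0.376 and 0.293 FPKM, was below the minimum of 1 FPKM and is left out of the counts. A retrocopy of *Eno1* listed as *Gm5506* stood at 234 and 316 FPKM (-0.44). As reads are hard to assign between such copies, the sum of both is given too, and it had a log2 ratio of -0.19. Processed pseudogenes are also known for *Gapdh*, *Ldha*, *Pgk1*, *Pgam1* and *Tpi1*, so reads of these genes may be split in ways the table does not show.

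Lactate dehydrogenase converts pyruvate and lactate into each other, and its genes differed in opposite directions. *Ldha*, on chromosome 7 from 46841632 to 46855629, encodes the form that predominates in glycolytic tissue and is a HIF target. It was at 1529 FPKM in mutants against 1830 FPKM in wildtype embryos (log2 ratio -0.26). *Ldhb*, on chromosome 6 from 142490249 to 142507943, encodes the form that predominates in heart. It was at 73.9 FPKM in mutants against 40.9 FPKM in wildtype embryos. Its log2 ratio of 0.85 was the highest of the 33, and 1.56% of all loci lay as high or higher.

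**Figure D2:**
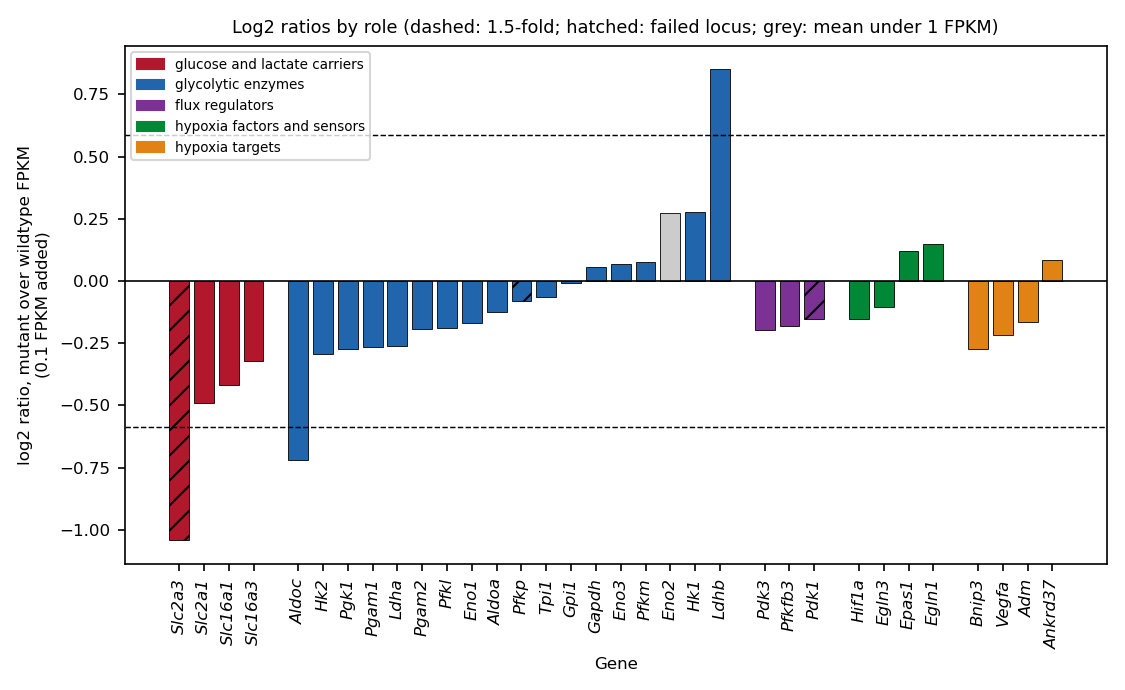
Log2 ratio of mutant over wildtype FPKM, with 0.1 FPKM added, for each of the 33 genes, ordered within each role, with dashed lines at the 1.5-fold difference (0.585 in either direction). Bars are hatched for failed loci and grey for *Eno2*, which had a mean below 1 FPKM. *Slc2a3* at -1.04 and *Aldoc* at -0.72 cross the lower line, *Ldhb* at 0.85 crosses the upper one, and the bars of the other 29 genes with a mean level of 1 FPKM or more stay between them.

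Because FPKM is scaled to transcript length, forms of the same step can be set side by side as shares of their summed FPKM. Shares were taken over the forms among the 33 genes alone, and forms outside them, such as *Hif3a* at 3.24 and 2.35 FPKM, were not counted. In 6 of the 10 families examined, 1 form held over 80% of this sum in both genotypes. *Aldoa* held 99.7% of aldolase FPKM in mutants and 99.6% in wildtype, *Pgam1* 97.8% and 97.9%, and *Eno1* 98.3% and 98.5%. *Pfkl* held 82.0% and 84.3% of phosphofructokinase FPKM. The most abundant form was the same in both genotypes in all 10 families.

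Shares differed most between genotypes in hexokinase and in the glucose carriers. *Hk1* made up 35.3% of the hexokinase FPKM in mutant and 26.8% in wildtype embryos, a difference of 8.49 percentage points, while the summed level of both forms differed little (log2 ratio -0.12). *Slc2a1* made up 69.0% of the glucose carrier FPKM in mutants and 60.3% in wildtype, a difference of 8.69 points that rests on the failed locus of *Slc2a3*. *Ldhb* went from 2.19% of lactate dehydrogenase FPKM in wildtype to 4.61% in mutants. The level of *Ldha* was 44.7 times that of *Ldhb* in wildtype and 20.7 times that in mutants, although the family as a whole was lower in mutants (log2 ratio -0.22). The shares of *Slc16a1* and *Slc16a3*, and those of *Pdk1* and *Pdk3*, differed by 1.42 and 0.760 points.

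**Figure D3:**
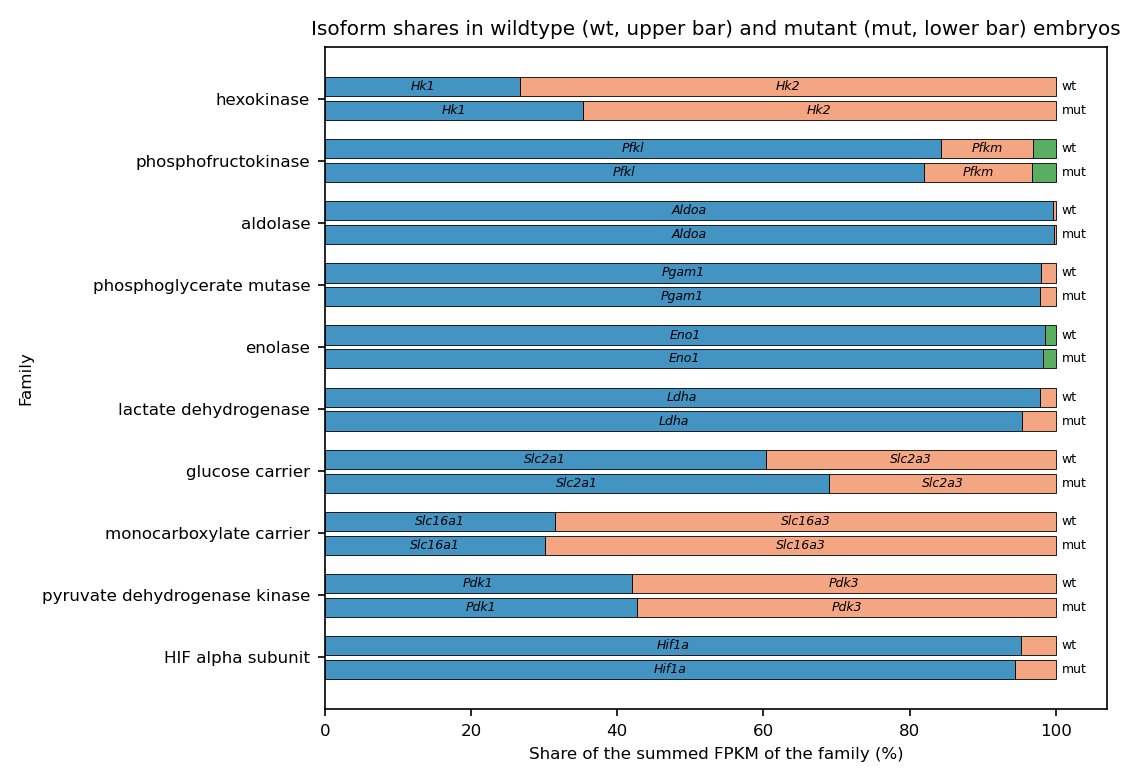
Share in percent of the summed FPKM of each of 10 families held by its forms among the 33 genes, with the wildtype value as the upper and the mutant value as the lower bar of each pair. Forms follow the order of their symbols, except that *Hif1a* comes before *Epas1*. The unlabelled end pieces are *Pfkp*, *Aldoc*, *Pgam2*, *Eno3* (with *Eno2* too thin to see), *Ldhb* and *Epas1*. The boundary shifts most for hexokinase and the glucose carriers, and *Ldhb* widens from 2.19% to 4.61%.

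The regulators of flux were lower in mutants by similar amounts. *Pdk1* and *Pdk3* encode kinases that inactivate pyruvate dehydrogenase and so hold back the conversion of pyruvate to acetyl-CoA in mitochondria. *Pdk1*, whose locus was marked as failed, was at 24.8 FPKM in mutants against 27.6 FPKM in wildtype embryos (log2 ratio -0.15). The X-linked *Pdk3* was at 33.3 and 38.1 FPKM (-0.20). *Pfkfb3*, which makes the activator of phosphofructokinase, was at 9.34 and 10.6 FPKM (-0.18).

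The factors and sensors of the hypoxia response showed no common direction. *Hif1a*, the alpha subunit present in most cells, was at 46.7 FPKM in mutants against 51.9 FPKM in wildtype embryos (log2 ratio -0.15). *Epas1*, which encodes HIF-2 alpha and is known from endothelium, was at 2.79 and 2.56 FPKM (0.12). The oxygen sensor *Egln1* was at 35.2 and 31.8 FPKM (0.15), and its inducible relative *Egln3* at 5.11 and 5.50 FPKM (-0.11). A further prolyl hydroxylase outside the 33 genes, *Egln2*, was at 32.9 and 29.1 FPKM (0.18). HIF activity is set mainly by the stability of the alpha subunit protein, which transcript levels do not measure.

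Of the hypoxia targets outside glycolysis, 3 of 4 were lower in mutants. *Bnip3*, a mitochondrial protein of mitophagy, was at 48.5 FPKM in mutants against 58.7 FPKM in wildtype embryos (log2 ratio -0.28). The vessel growth factor *Vegfa* was at 11.3 and 13.2 FPKM (-0.22), and *Adm*, the gene of the vasoactive peptide adrenomedullin, at 1.24 and 1.41 FPKM (-0.17). *Ankrd37*, an ankyrin repeat gene induced by HIF, was slightly higher, at 6.02 and 5.68 FPKM (0.083). Each of these 4 differences was below 1.5-fold. Of all genes with a promoter window and a mean level of 1 FPKM or more among the 33, those with an ACGTG or GCGTG were lower in 20 of 27 cases (median log2 ratio -0.17) and those without in 3 of 3 (median -0.066).

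A longer list of 36 other hypoxia target genes, chosen with earlier results of these data known, gave a median close to that of the 33 genes. The list of other glycolysis and glucose carrier genes, described below, had a median nearer 0 (-0.014). At 32 entries of the hypoxia target list the mean reached 1 FPKM, with 22 lower and 10 higher in mutants and a median log2 ratio of -0.16. *Epo* was counted there more than once, as its locus holds separate entries with log2 ratios of 0.045 and -0.32. *Stc2*, which encodes a secreted glycoprotein, was past the 1.5-fold difference, at 3.01 FPKM in mutants against 4.61 FPKM in wildtype embryos (log2 ratio -0.60). No other entry of the hypoxia target list passed it. The other genes of the HIF pathway itself, among them *Arnt*, *Vhl* and *Cited2*, had a median of 0.038, with 8 of 13 higher.

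The neighbouring routes of carbon metabolism did not have the low median of these lists. For 18 TCA cycle genes the median log2 ratio was 0.037, with 11 higher and 7 lower, and for 8 pentose phosphate pathway genes it was 0.056, with 5 higher and 3 lower. For 10 genes of the pyruvate dehydrogenase complex, its kinases and phosphatases and the pyruvate carrier it was 0.068, with 5 on each side, and all 3 gluconeogenesis genes that reached 1 FPKM were higher (median 0.099). No gene of these 4 lists passed the 1.5-fold difference. Among 11 other glycolysis and glucose carrier genes 7 were lower and 4 higher (median -0.014). *Pkm*, listed as *Pkm2*, the pyruvate kinase of the embryo and the last enzyme of the chain, was level at 1490 and 1505 FPKM (-0.014; chosen for mention after its values were seen, as the 33 genes hold no pyruvate kinase). *Pklr*, the pyruvate kinase of liver and red cells, was at 9.04 FPKM in mutants against 4.65 FPKM in wildtype embryos, a log2 ratio of 0.95.

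**Figure D4:**
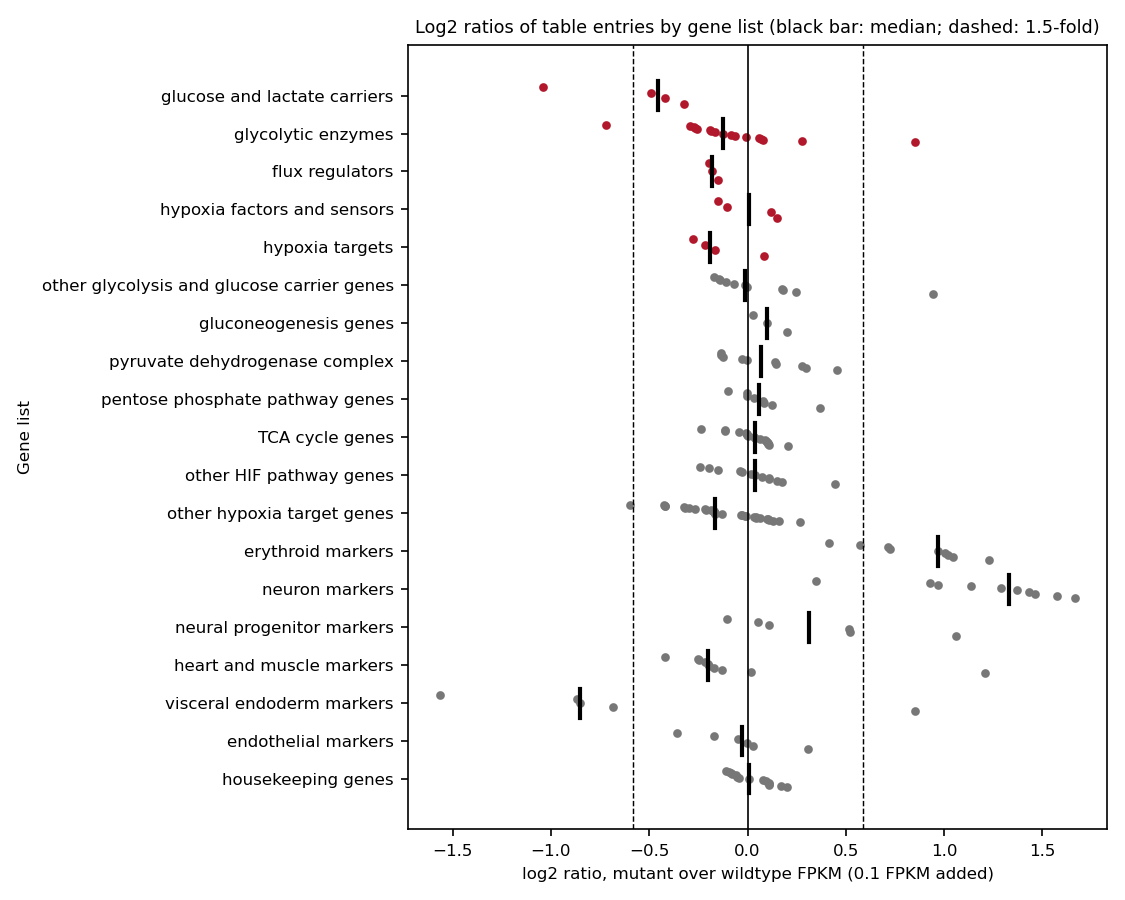
Log2 ratio of mutant over wildtype FPKM for table entries with a mean level of 1 FPKM or more, 1 point per entry, by gene list, with the 5 roles of the 33 genes in red, other lists in grey, a black bar at each median and dashed lines at the 1.5-fold difference. The carriers have the lowest median of the red lists at -0.46, the other hypoxia targets lie at -0.16, the TCA cycle genes at 0.037, and the markers of erythroid cells and neurons lie far to the right at 0.97 and 1.33.

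The erythroid, neuron and visceral endoderm markers had medians farther from 0 than any role of the 33 genes. In RNA from whole embryos, fewer cells of a type and fewer transcripts per cell cannot be told apart. All 9 erythroid marker entries were higher in mutants, 7 of them past 1.5-fold (median log2 ratio 0.97). They ranged from 0.41 to 1.23 and together made up 2.14% of the summed FPKM in mutants and 1.03% in wildtype embryos, the sum being taken over entries that carry a gene symbol and span 200 bp or more. All 10 neuron markers were higher as well, 9 past 1.5-fold (median 1.33, range 0.35 to 1.67), with summed levels of 207 FPKM in mutants against 84.6 FPKM in wildtype embryos. Of 6 neural progenitor markers 5 were higher (median 0.31), and *Fabp7* alone passed 1.5-fold, at 43.1 and 20.6 FPKM.

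Of 10 heart and muscle markers 8 were lower and 2 higher (median -0.20), and *Myog* was the 1 gene past 1.5-fold, at 3.98 and 1.67 FPKM. Visceral endoderm markers with a mean level of 1 FPKM or more numbered 5, of which 4 were lower and *Afp* was higher (median -0.85), all 5 past 1.5-fold. *Cubn*, *Amn*, *Apob*, *Apoa4* and *Soat2* were below that level in the mean, with log2 ratios from -2.51 for *Cubn* to -0.61 for *Apoa4*. The 6 endothelial markers had a median of -0.027 with none past 1.5-fold, all 6 trophoblast markers were below 1 FPKM, and 15 housekeeping genes had a median of 0.0068. *Kdr* stands in both the endothelial and the hypoxia target list, and *Sdha* in both the housekeeping and the TCA cycle list. The part of these cell types in the levels of the glycolysis and hypoxia genes was not tested. The 33 genes together held 1.91% of the same FPKM total in mutant and 2.12% in wildtype embryos.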

How the data were processed

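Transcripts of 6 male embryos at E9.5, 3 per genotype, had been sequenced, and the genotype label defined the groups. Per the paper and the submitters' processing notes, single-end reads were aligned with TopHat2 2.0.6 and Bowtie2 2.0.2 to mm10 and compared with Cufflinks and Cuffdiff 2.0.2. The deposited values are FPKM, which the authors computed as 1 value per genotype and locus, pooled over embryos. The headers name the columns only Smchd1_M and Smchd1_P, and the paper's supplementary copy of the table gives their genotypes. The authors' fold changes, test statistics, p-values and q-values, which the table also holds, were not used. The program marked 134 loci as failed and 9909 as not tested, and these were kept.

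Log2 ratios were computed here with 0.1 FPKM added, and 1.5-fold differences were counted over loci with a mean level of 1 FPKM or more. Locus starts were written counting from 1. With 1 value per genotype no test, standard error or interval was possible. The 33 genes and the other lists were chosen with earlier results of these data known. The rule for naming genes took all 33 genes and, of each other list, up to 4 genes past 1.5-fold with the largest ratios. Some genes are named outside this rule, among them *Pkm*, *Hif3a*, *Egln2*, *Arnt*, *Vhl*, *Cited2*, *Slc2a4* and *Slc2a8*. Marker genes past the difference are mostly given as counts. Promoter sequences came from RefSeq (GRCm38.p6). Alternatives were other pseudocounts, minimum levels, fold differences and scalings, FPKM summed over entries, and leaving out failed loci, the last chosen after seeing the data. Python 3.11.15, numpy 2.4.6, pandas 2.3.3 and matplotlib 3.10.9 were used.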

Additional observations from a re-analysis of the deposited data

How the results depend on the processing

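Only the scalings could change the sign of a single gene. Centring on the median locus moved every gene by 0.0076 and rescaling to the same total by about 0.016, and neither changed the sign of any of the 32 genes. The number of genes that were higher went from 1 to 0 at 2-fold. The number that were lower went from 2 to 5 when a difference of 25% sufficed, and to 1 at 2-fold, with a pseudocount of 1 FPKM, with a minimum of 5 FPKM and without failed loci. *Aldoc* was the gene lost with the larger pseudocount (log2 ratio -0.54) and *Slc2a3* the one lost without failed loci. Of 220 list medians under alternatives, 210 moved by at most 0.1 without changing sign. The median of the visceral endoderm markers moved most, from -0.85 to -0.00035 with a minimum of 5 FPKM and to -1.16 with one of 0.1 FPKM. With a minimum of 5 FPKM the median of the pyruvate dehydrogenase genes was -0.028 and that of the hypoxia factors and sensors -0.11, both of the opposite sign to that at 1 FPKM, and fewer genes entered them. Rescaling to the same total gave -0.0079 for the hypoxia factors and sensors and -0.0091 for the housekeeping genes, medians that were near 0 before. The alternatives run for the isoform shares could not change them, since each gene has 1 entry and every form lay above 0.1 FPKM. Leaving out each embryo was not possible. No paired analysis was possible because the table holds 1 value per genotype. The unknown depth limits genes near 1 FPKM, such as *Adm*, most.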
